A study of Homo sapiens with 51 samples.

Results

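AAAS encodes ALADIN, a WD-repeat protein of the nuclear pore complex, and the 32 genes described here are AAAS and 31 other nucleoporins, out of 25421 gene symbols in the count table. The members were taken by symbol. The family was looked at because AAAS was about 7-fold lower in OVOL2 than in mCherry libraries that also received M2rtTA, so the AAAS values of that comparison are given as a description, with no test. OVOL2 is a zinc-finger transcription factor of epithelial cells, mCherry is a fluorescent protein used as the control, and M2rtTA is a transactivator that drives tetracycline-inducible promoters in the presence of doxycycline.

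RNA was measured by PLATE-seq, a 3′-end method with a barcode per well, in 51 libraries of 5 human pancreatic ductal adenocarcinoma cell lines, in 17 groups of 3. KP4, PANC1 and PK45H each had an untreated group, an mCherry group, an OVOL2 group, an mCherry + M2rtTA group and an OVOL2 + M2rtTA group. HPAFII and PATU8988S had untreated groups only. Per the labels, lentiviral reading frames were given in triplicate wells at a multiplicity of infection of 2 with polybrene (8 µg/ml). Puromycin (2.5 µg/ml) and doxycycline (0.6 µg/ml) came on the following day, and culture lasted 6 days in all. The mCherry groups therefore carried the virus, the selection and the doxycycline too. The labels name neither the promoter of the reading frames nor separate starting cultures, so p-values measure only the spread between these samples, which may be technical. RNA comes from bulk wells, in which fewer cells of a type and less RNA per cell cannot be told apart.

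The nuclear pore complex is the channel through which proteins and RNA pass between nucleus and cytoplasm. Stacked scaffold rings, built from the Y complex and the inner ring, are held in the nuclear envelope by membrane proteins, line a central channel with phenylalanine-glycine repeats, and carry cytoplasmic filaments on one face and a basket on the other. ALADIN is held at the pore by the membrane nucleoporin NDC1, and loss of AAAS causes Allgrove syndrome.

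Library totals ran from 1165399 to 7490556 counts, the lowest being HPAFII replicate 2, and the lowest total in the 3 transduced lines was 2439323. All 32 genes passed the filter on low counts in every fit. NUP210 was at 0 in 1 library and no other nucleoporin was at 0 anywhere. Levels are CPM (counts scaled to library size with TMM factors, a common unit of sequencing depth). Before the TMM factors, 1 count was worth 0.134 to 0.858 CPM. A change is the log2 ratio of OVOL2 to mCherry libraries unless said otherwise and comes with a standard error (SE); the threshold was an adjusted p under 0.05 (edgeR quasi-likelihood test, Benjamini-Hochberg over all genes tested). The gene OVOL2 itself, measured at the 3′ end, differed by −0.09 (SE 0.46, adjusted p = 0.926) over lines without M2rtTA and was 2.15 higher (SE 0.44, adjusted p = 0.00021) with it. Its level was 0.201 to 1.87 CPM in the 9 OVOL2 libraries and 1.46 to 10.4 CPM in the 9 OVOL2 + M2rtTA libraries. In the lines that were not transduced, OVOL2 stood at 20.8 to 28.1 CPM in PATU8988S and 1.56 to 7.11 CPM in HPAFII. Whether the delivered reading frame carries the 3′ end that the counts need is not given in the sources used here.

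The ductal markers EPCAM, CDH1, KRT7, KRT8, KRT18 and KRT19 had counts in all 51 libraries and moved with OVOL2. Over lines 3 of the 6 rose without M2rtTA, where 9.32% of all genes were called higher. These were EPCAM (2.19), CDH1 (2.49) and KRT18 (0.60). With M2rtTA all 6 rose, by 0.29 (KRT18) to 2.52 (CDH1), where 15.7% of all genes were called higher. In KP4 and PK45H the summed level of the 6 in OVOL2 libraries lay above that of the controls in both arms. In PANC1 it was 2317 to 2602 CPM in OVOL2 and 2198 to 2635 CPM in mCherry libraries. With M2rtTA it was 1979 to 2272 CPM there, against 2228 to 2545 CPM in the controls. Markers of other cell types were low. Of 7 fibroblast markers, COL1A1, COL1A2, COL3A1 and DCN were at 0 in no library and LUM was at 0 in 41. Their summed level was 12.4 to 38.9 CPM in the 9 mCherry + M2rtTA libraries and 30.5 to 66.9 CPM in the OVOL2 + M2rtTA libraries, with no overlap within a line; COL1A1 rose by 1.72 and COL3A1 fell by 1.18. Without M2rtTA COL3A1 fell by 0.89 and no other tested fibroblast marker passed. Among leukocyte markers LYZ was at 0 in 4 libraries, PTPRC in 6, CD68 in 9 and CD14 in 32, and none of those tested passed. Among 4 endothelial markers PECAM1 and CDH5 were at 0 in no library, KDR in 16 and VWF in 11, and VWF rose by 1.85 with M2rtTA (adjusted p = 0.013). The part of these markers in the nucleoporin results was not tested.

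Without M2rtTA, AAAS fell with OVOL2 in all 3 lines. These libraries are not those of the fold change that chose the gene. They share its lines and treatment, though, and earlier results of these data were known at the choice. The fits also take their spread from both arms, so the p-values below are not independent of the choice. In KP4 the mCherry libraries held 105.6, 98.2 and 85.6 CPM and the OVOL2 libraries 27.6, 21.9 and 20.4 CPM. In PANC1 they held 52.9, 49.8 and 54.2 CPM against 23.9, 43.1 and 24.6 CPM. In PK45H they held 39.5, 25.2 and 50.8 CPM against 18.2, 10.1 and 13.3 CPM. The groups did not overlap in any line, and PANC1 OVOL2 replicate 2 lay closest to its controls. Of all tested genes, 13.5% (KP4), 13.1% (PANC1) and 12.3% (PK45H) had every OVOL2 library below every mCherry library.

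The mean AAAS change over lines without M2rtTA was −1.42 (SE 0.13, adjusted p = 1.93e-10 by edgeR), a level 2.68-fold lower. It ranked 193rd from the lowest of 14943 genes, of which 18.1% passed the threshold. An exact two-sided permutation of the libraries within lines gave p = 0.00025 for AAAS over lines, the smallest that 8000 assignments allow, and p = 0.1 in each line, the smallest that 3 against 3 libraries allow. By line, AAAS fell by 2.04 in KP4 (SE 0.15, adjusted p = 6.32e-06), by 1.51 in PK45H (SE 0.27, adjusted p = 0.00311) and by 0.76 in PANC1 (SE 0.20, adjusted p = 0.0449). The PANC1 call is the least firm: it was lost without any 1 of 5 of the 6 libraries, all but OVOL2 replicate 2, with an adjusted p of up to 0.181 (without OVOL2 replicate 3) and a change between −1.08 and −0.61. The size of the AAAS change differed between the lines (edgeR, 2 degrees of freedom, adjusted p = 0.0323, with 2.74% of all genes called), a call that was lost without any 1 of 9 of the 18 libraries.

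With M2rtTA the AAAS level was nearly the same in the OVOL2 libraries of all 3 lines, from 7.33 to 10.04 CPM over 9 libraries and 29 to 70 counts each. Their mCherry + M2rtTA controls were at 91.5, 89.6 and 67.7 CPM in KP4, 58.3, 62.0 and 61.1 CPM in PANC1, and 36.0, 49.4 and 40.9 CPM in PK45H. The OVOL2 + M2rtTA libraries held 9.38, 8.26 and 7.43 CPM in KP4, 7.80, 10.04 and 7.75 CPM in PANC1, and 7.68, 8.02 and 7.33 CPM in PK45H. Each of the 9 was below each of the 9 OVOL2 libraries without M2rtTA, whose lowest value was 10.1 CPM, in PK45H. These are the values that chose the gene: in KP4 AAAS was 9.80-fold lower, and in PANC1 and PK45H it was 6.85-fold and 5.45-fold lower. Over lines the change was −2.84, and it lay 1.42 further down than without M2rtTA. No test is given for these values, in a comparison in which 32.9% of 14943 genes passed the threshold.

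**Figure D1:**
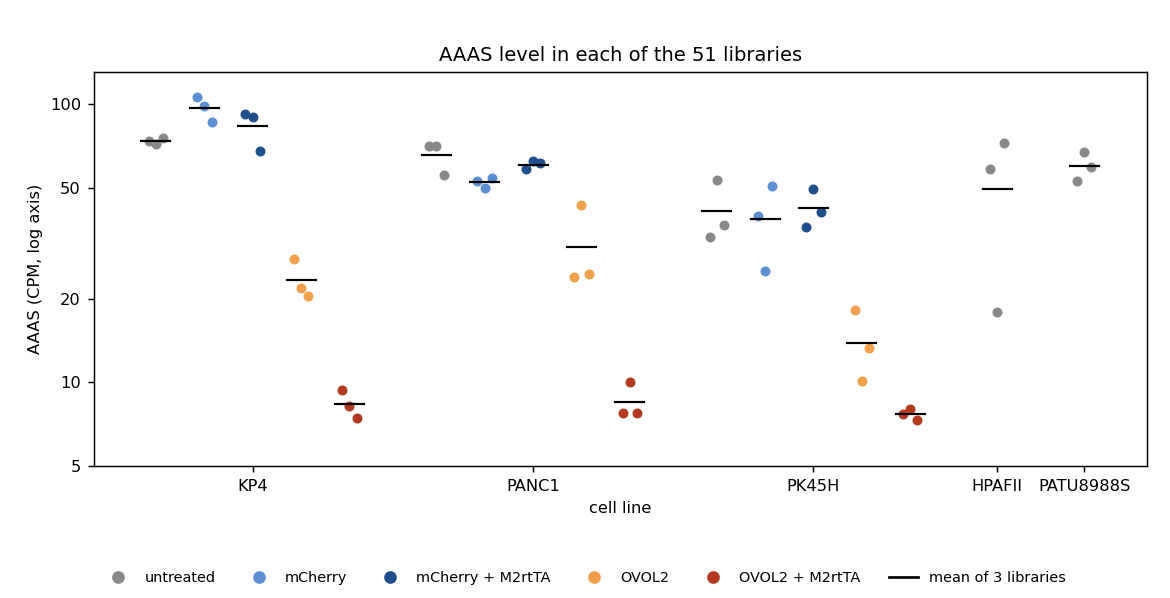
AAAS in each of the 51 libraries, in CPM on a log axis, by cell line; points are libraries, coloured by treatment, and bars are means of 3. The 9 OVOL2 + M2rtTA libraries lie between 7.33 and 10.04 CPM, below the 9 OVOL2 libraries (10.1 to 43.1 CPM), while the 27 mCherry and untreated libraries of these lines lie between 25.2 and 105.6 CPM.

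The mCherry libraries differ from the untreated ones by the virus, polybrene, puromycin and doxycycline together, and AAAS did not pass the threshold between them in any line. For mCherry against untreated, edgeR gave KP4 a change of 0.40 (adjusted p = 0.578), PANC1 one of −0.30 (adjusted p = 0.678) and PK45H one of −0.07 (adjusted p = 0.98). For mCherry + M2rtTA against mCherry the AAAS change was −0.21 (KP4), 0.20 (PANC1) and 0.12 (PK45H), shown without a test because these M2rtTA libraries chose the gene. The 9 mCherry and untreated libraries of KP4 stood at 67.7 to 105.6 CPM, those of PANC1 at 49.8 to 70.2 CPM and those of PK45H at 25.2 to 53.4 CPM. The ranges of KP4 and PANC1, and those of PANC1 and PK45H, overlap. In the untreated lines that were not transduced, AAAS was at 53.0, 67.0 and 59.5 CPM in PATU8988S and at 58.2, 17.96 and 72.2 CPM in HPAFII, where the low value is that of the shallow replicate 2, with 23 counts.

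AAAS lies at chr12:53307460-53321610 on the minus strand (RefSeq, GRCh38.p14). The last 500 bases of its transcripts share 0% of their 31-base words with other genes in the GENCODE annotation. The nearest gene, MYG1, ends 282 bases from the end of AAAS and runs towards it. MYG1 changed by −0.01 (SE 0.09, adjusted p = 0.968) over lines without M2rtTA. With M2rtTA it fell by 0.43 (adjusted p = 0.000267). The other neighbours without M2rtTA were PFDN5 (−0.13, adjusted p = 0.37), ESPL1 (−0.36, adjusted p = 0.202) and SP1 (−0.08, adjusted p = 0.688). With M2rtTA, PFDN5 fell by 0.24 (adjusted p = 0.0393), and ESPL1 (−0.47, adjusted p = 0.0611) and SP1 (0.05, adjusted p = 0.755) did not pass. SP7 and AMHR2, on the side of the AAAS start site, were too low to be tested. By line, the 1 call among these 4 genes was MYG1 in KP4 with M2rtTA (−0.81, adjusted p = 0.00133), where ESPL1 was at −0.79 (adjusted p = 0.0544). A test of the difference from AAAS was not run.

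**Figure D2:**
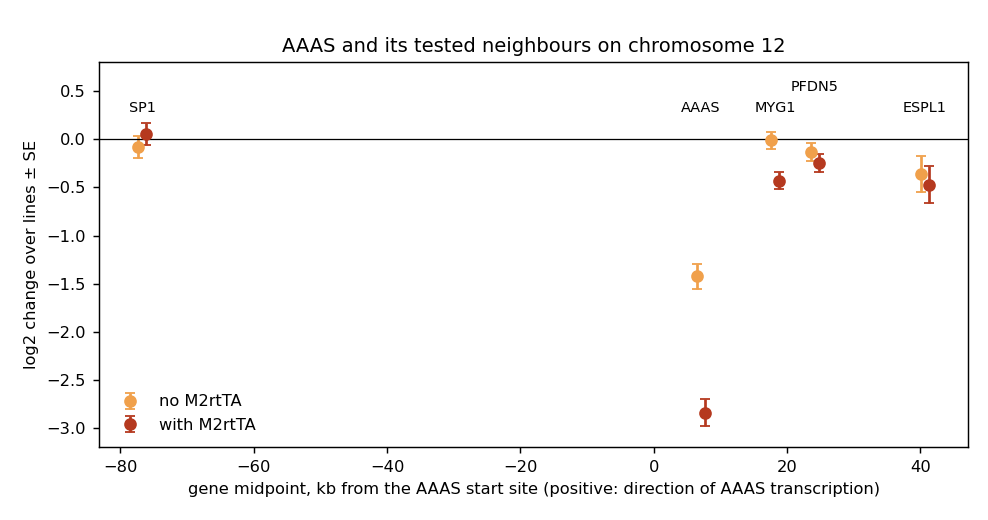
Change over lines (log2, OVOL2 against mCherry, with its SE) of AAAS and the tested genes around it on chromosome 12, by distance of the gene's midpoint from the AAAS start site, without and with M2rtTA. AAAS is at −1.42 and −2.84, and its neighbours lie between −0.47 and 0.05 over lines.

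The 250 bases before the AAAS start site are shown because they hold a match to CCGTTA, the core motif known for OVO-type zinc-finger proteins such as OVOL2; read on the other strand it is TAACGG, which is also a core that MYB proteins bind. The region is chr12:53321611-53321860, read 5′ to 3′ on the minus strand as AAAS is transcribed (RefSeq, GRCh38.p14), with the motif in capitals at bases −17 to −12 from the start site.

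AAAS: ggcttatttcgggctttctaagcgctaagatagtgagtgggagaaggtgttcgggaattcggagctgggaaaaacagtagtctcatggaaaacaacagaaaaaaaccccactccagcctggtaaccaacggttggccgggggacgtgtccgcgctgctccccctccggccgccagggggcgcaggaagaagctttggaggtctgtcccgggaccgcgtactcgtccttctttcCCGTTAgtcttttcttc

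CCGTTA was searched on both strands in windows of 300 bases (250 before to 50 after a start site) and found in 3.07% of 35116 windows. By gene, 3.8% of 27305 symbols with a window had a match in at least 1 of theirs. Of the 32 nucleoporins, 29 had a window and 5 of these (17.2%) had a match in at least 1 of theirs. By window, this was 5 of 37 (13.5%). These shares were not tested. The 4 other matches are shown to compare their surroundings with that of AAAS, 30 bases each with the motif in capitals, on the gene's own strand; those of POM121 and POM121C are near copies of each other.

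NUP35: taaggtagcacgCCGTTAcccgtggggagc
POM121: aggaaatagagtCCGTTActtgtcctggga
POM121C: gggaaatagagtCCGTTActtgtcctggga
NUP93: acttggtacagtCCGTTAacaataaaatac

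They lie at bases −65 to −60 in NUP35 (chr2:183124366-183124395), −128 to −123 in POM121 (chr7:72879217-72879246), −114 to −109 in POM121C (chr7:75486396-75486425) and −38 to −33 in 1 of 3 windows of NUP93 (chr16:56781779-56781808). Over lines without M2rtTA these genes changed by −0.38 (NUP35), −0.30 (POM121), 0.15 (POM121C) and −0.30 (NUP93), none past the threshold. With M2rtTA only NUP35 among them passed (−0.40, adjusted p = 0.0379). Across all tested genes with a window, 5.17% had a match. The share was 11.5% of those called lower and 2.93% of those called higher without M2rtTA, and 8.20% and 3.63% with it. A match describes the letters in the window and is not a binding site.

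The other nucleoporins had smaller changes than AAAS over lines in both arms. Without M2rtTA, 0 of the 31 passed the threshold in KP4, PANC1 or PK45H (edgeR), in fits that called 6.82%, 5.08% and 8.39% of all genes. At an unadjusted p under 0.05 there were 4, 8 and 3 of them, and DESeq2 called 0, 2 and 0. In KP4 their changes ran from −0.63 to 0.31, in PANC1 from −1.07 to 0.72 and in PK45H from −0.50 to 0.64. The lowest in PANC1 was NUP93 (−1.07, not past the threshold), which lay below AAAS there (−0.76). Averaged over lines, 3 of 31 passed (1 higher, 2 lower, or 9.68%, against 18.1% of all genes, 9.32% higher and 8.81% lower): NUP88, SEH1L and SEC13. The median change of the 31 was −0.08, with 23 below 0, and that of all genes was 0.00098. The lowest of the 31 was NUP107, a Y complex scaffold protein, at −0.40 (SE 0.15, adjusted p = 0.0686), against −1.42 for AAAS.

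With M2rtTA, more of the 31 were lower, most of them in KP4. There 6 of 31 passed, all lower (19.4%, against 22.4% of all genes called and 12.5% called lower), with a median of −0.39. In PANC1, 2 passed (1 higher, 1 lower), against 13.9% of all genes (5.76% higher, 8.18% lower), and the median was −0.0014. In PK45H, 1 passed, lower, against 15.9% of all genes (8.4% lower), and the median was −0.09. Over lines, 9 of 31 passed, all lower: 29.03%, against 32.9% of all genes called, 15.7% higher and 17.3% lower. The median over lines was −0.09, that of all genes was 0.03, and 26 of the 31 were below 0. The calls of NUP88, NDC1, NUP62 and SEH1L held without any 1 of the 18 libraries. Those of NUP155, NUP188, NUP42, NUP35 and NUP37 were lost without any 1 of 4, 6, 9, 10 and 12 of them. The count fell to 5 without PANC1 OVOL2 + M2rtTA replicate 1, PANC1 mCherry + M2rtTA replicate 1 or PK45H OVOL2 + M2rtTA replicate 2. In KP4 it fell from 6 to 3 without OVOL2 + M2rtTA replicate 2 or mCherry + M2rtTA replicate 2. In PANC1 it was 0 or 1 without any 1 library, and in PK45H it was 0.

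**Figure D3:**
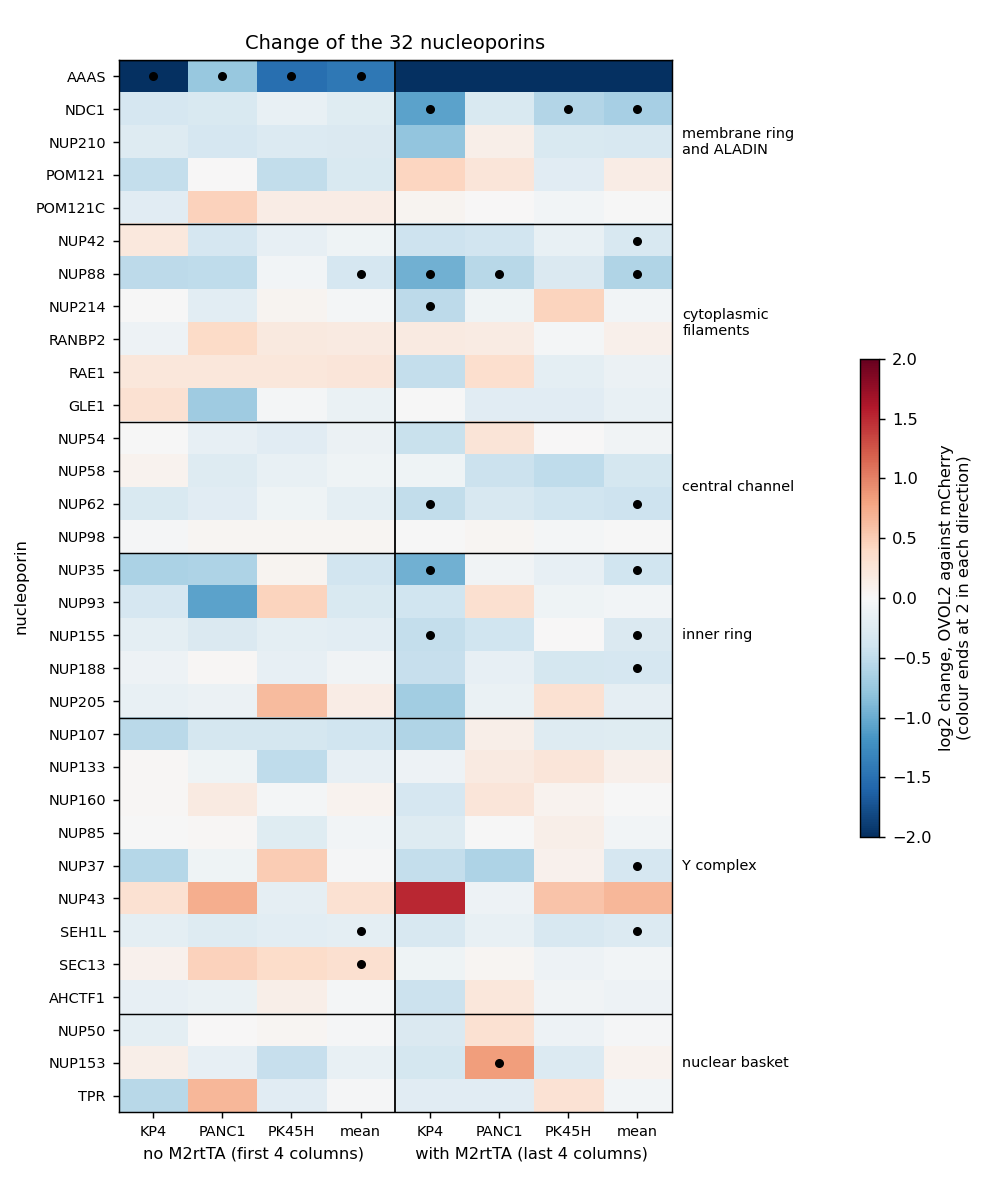
Log2 change (OVOL2 against mCherry) of the 32 nucleoporins, grouped by place in the pore, in each line and over lines. Columns without M2rtTA are on the left and those with it on the right. Blue is lower with OVOL2, and colours end at 2. Dots mark changes past the threshold. For AAAS with M2rtTA no dots are drawn, because those values chose the gene. AAAS is blue in all 8 columns, and 9 other genes have a dot over lines with M2rtTA.

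The direction of change in the 3 lines was counted for the 31 but not for all genes, so these counts are a description. By edgeR's test of a difference between lines, only NUP153 of the 31 passed, with M2rtTA (adjusted p = 0.019). Of the 31, 8 were lower in all 3 lines without M2rtTA, 2 were higher in all 3 and 21 were mixed. With M2rtTA 9 were lower in all 3, 0 were higher in all 3 and 22 were mixed. Without M2rtTA, all OVOL2 libraries lay below all mCherry libraries for 8 of the 31 (KP4), 5 (PANC1) and 2 (PK45H), where 13.5%, 13.1% and 12.3% of all genes did so. With M2rtTA these counts were 14, 3 and 5, where 19.2%, 18.2% and 18% of all genes did so. AAAS did so in the 3 comparisons without M2rtTA and also in the 3 with it, where the choice of the gene used the same values.

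**Figure D4:**
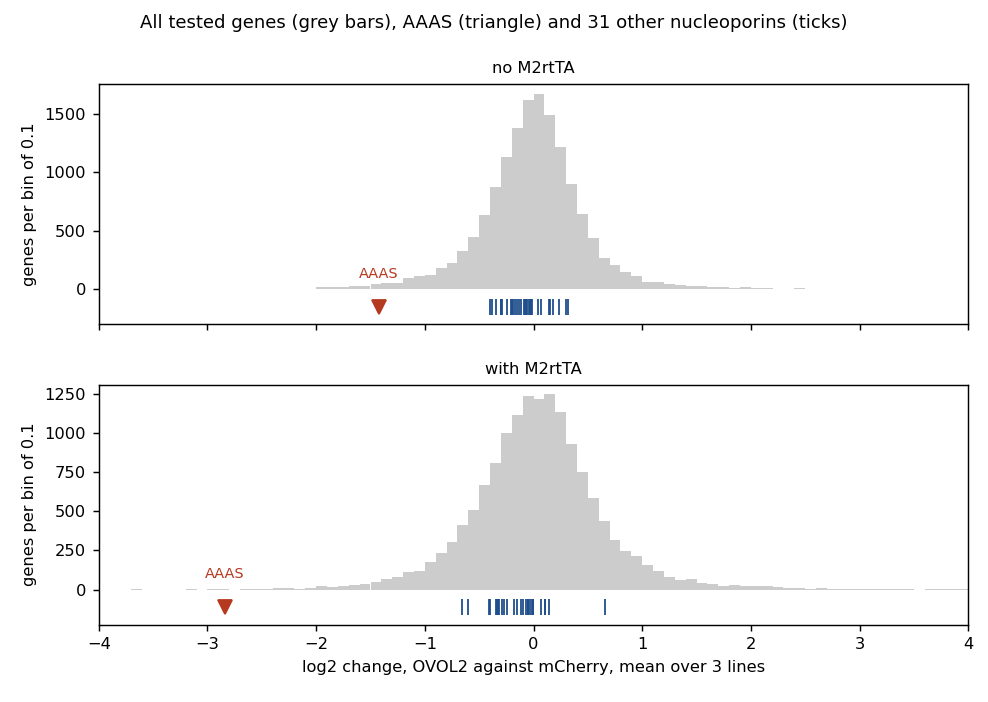
Distribution of the change over lines (log2, OVOL2 against mCherry) for all 14943 tested genes (grey bars, genes per bin), with AAAS as a triangle and the 31 other nucleoporins as ticks, without M2rtTA (top) and with it (bottom). The ticks lie between −0.40 and 0.32 (top) and between −0.66 and 0.66 (bottom), and AAAS lies at −1.42 and −2.84.

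Among the membrane nucleoporins, NDC1, which anchors ALADIN, passed the threshold with M2rtTA and not without it. Over lines it changed by −0.24 (SE 0.12, adjusted p = 0.152) without M2rtTA and fell by 0.66 (SE 0.12, adjusted p = 2.83e-05) with it, and the difference between the arms did not pass (−0.42, adjusted p = 0.119). In KP4 with M2rtTA the controls held 29.4, 39.1 and 29.3 CPM of NDC1 and the OVOL2 libraries 13.4, 15.3 and 17.7 CPM. In PK45H they held 17.4, 19.4 and 20.3 CPM against 13.6, 11.9 and 12.3 CPM. In PANC1 they held 27.4, 24.0 and 27.2 CPM against 21.9, 27.4 and 12.2 CPM. The groups were apart in KP4 (change of −1.07, adjusted p = 0.000459) and PK45H (−0.59, adjusted p = 0.0424) and overlapped in PANC1 (−0.31, adjusted p = 0.447). The PK45H call was lost without any 1 of its 6 libraries (adjusted p of 0.0536 to 0.12).

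Because NDC1 and ALADIN sit together, the ratio of AAAS to NDC1 was also compared within libraries, a test added after the values had been seen and made without M2rtTA only. In KP4 the ratio of CPM was 2.70 to 3.92 in mCherry and 0.828 to 1.15 in OVOL2 libraries. In PK45H it was 1.048 to 2.80 against 0.566 to 0.987, and in PANC1 1.94 to 2.37 against 1.09 to 2.17. The groups were apart in KP4 and PK45H and overlapped in PANC1. Over lines the log2 ratio changed by −1.19 with OVOL2 (exact two-sided permutation within lines, p = 0.00075). KP4 gave −1.73 and PK45H −1.34 (p = 0.1 each by the exact permutation, the smallest possible), and PANC1 gave −0.49 (exact p = 0.2).

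NUP210, a large membrane glycoprotein of the pore, changed by −0.29 and −0.33 over lines without and with M2rtTA, neither past the threshold (adjusted p = 0.572 and 0.365). It was low in these lines, with a median of 5.56 CPM over all libraries. POM121 and POM121C, near-identical membrane nucleoporins, changed by −0.30 and 0.15 without M2rtTA and 0.15 and −0.0026 with it, none past the threshold. Of the 31-base words in their last 500 bases, 45.3% and 66.1% are shared with other genes, mostly with each other, so their counts are uncertain.

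On the cytoplasmic side, NUP88 had the lowest adjusted p of the 31 in both arms over lines. NUP88 forms a subcomplex with NUP214 at the cytoplasmic face. Over lines NUP88 fell by 0.34 without M2rtTA (SE 0.09, adjusted p = 0.00546) and by 0.61 with it (change of −0.605, SE 0.09, adjusted p = 1.51e-06), and the difference between the arms did not pass (adjusted p = 0.216). In KP4 without M2rtTA it was at 111.7, 89.8 and 95.7 CPM in mCherry and 70.4, 79.5 and 55.9 CPM in OVOL2 libraries. With M2rtTA it was at 97.5, 100.1 and 113.0 CPM against 49.6, 44.5 and 65.6 CPM. These groups were apart in both arms of KP4. In PANC1 with M2rtTA NUP88 was at 75.8, 62.6 and 70.4 CPM against 42.4, 45.03 and 50.7 CPM, again apart. In PK45H with M2rtTA it was at 80.6, 65.9 and 77.8 CPM against 65.3, 59.2 and 57.7 CPM, also apart but by less than 1 CPM. Within lines NUP88 passed with M2rtTA in KP4 (−0.96, adjusted p = 0.0012) and in PANC1 (−0.56, adjusted p = 0.0262), the PANC1 call being lost without any 1 of 4 libraries. PK45H gave −0.29 with M2rtTA (adjusted p = 0.179) and −0.05 without it (adjusted p = 0.869).

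Of the other cytoplasmic nucleoporins, NUP214 passed in KP4 with M2rtTA only (−0.53, adjusted p = 0.0488), a call lost without any 1 of 5 of its 6 libraries, and over lines in that arm it was at −0.05. NUP42, a partner of the mRNA export factor GLE1, passed over lines with M2rtTA (−0.32, adjusted p = 0.0331). GLE1 (−0.13 and −0.16), RANBP2 (0.18 and 0.10) and RAE1 (0.24 and −0.12) did not pass over lines in either arm. RANBP2, the SUMO ligase of the filaments, shares 9.6% of the words in its last 500 bases with copies such as RGPD5.

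In the central channel, NUP62 fell over lines with M2rtTA by 0.41 (SE 0.08, adjusted p = 0.000153) and was at −0.19 (adjusted p = 0.107) without it. NUP62 is the repeat-bearing protein that lines the channel together with NUP54 and NUP58. In KP4 with M2rtTA it held 123.7, 99.6 and 93.3 CPM in the controls and 72.2, 72.7 and 78.6 CPM in OVOL2 libraries. In PK45H it held 116.8, 121.8 and 135.9 CPM against 100.7, 92.9 and 88.02 CPM, and in PANC1 87.2, 72.8 and 96.4 CPM against 57.7, 65.1 and 77.5 CPM. The groups were apart in KP4 and PK45H and overlapped in PANC1. Its words are 24.7% shared with other genes, among them the overlapping IL4I1, so part of its counts is uncertain. NUP54 (−0.06), NUP58 (−0.34) and NUP98 (−0.008) did not pass over lines with M2rtTA, nor did any of them without it.

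**Figure D5:**
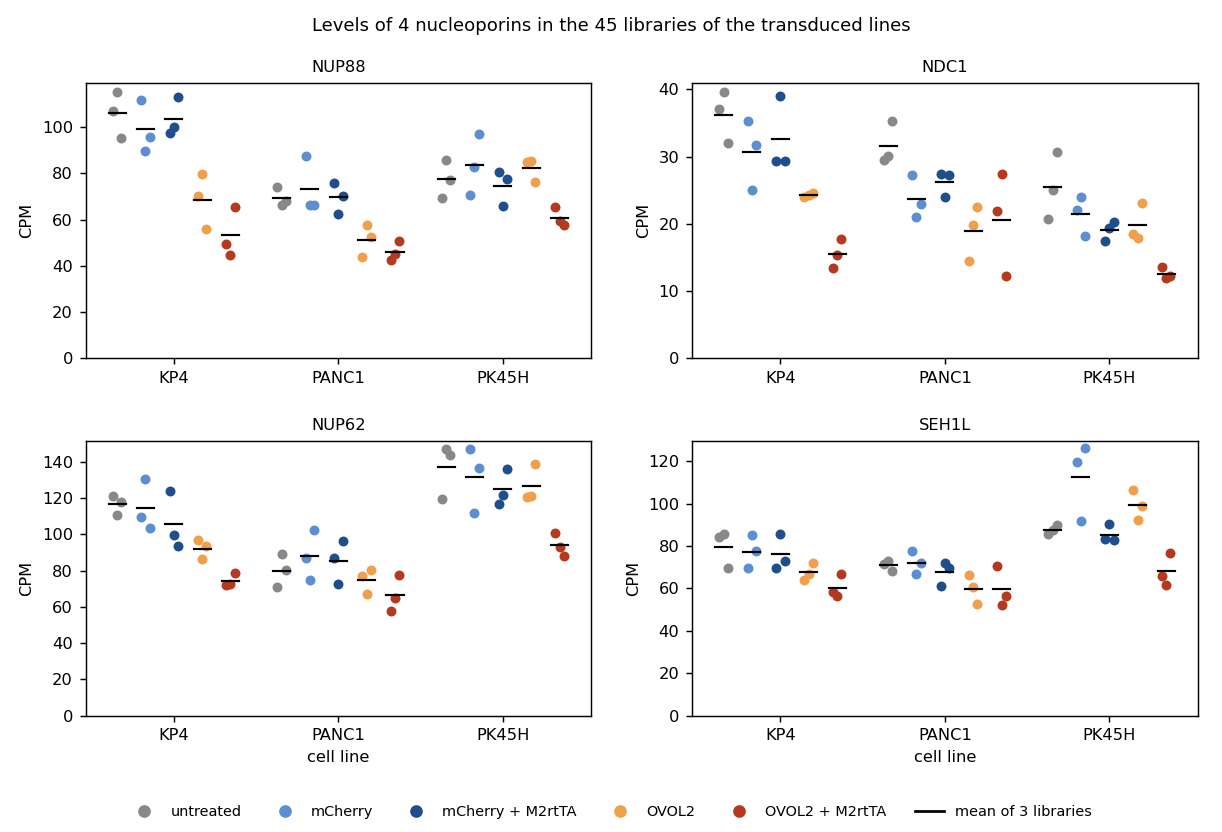
Levels of NUP88, NDC1, NUP62 and SEH1L in the 45 libraries of the transduced lines, in CPM from 0; points are libraries, coloured by treatment, and bars are means of 3. With M2rtTA the NUP88 libraries with OVOL2 lie below their controls in all 3 lines, whereas those of NDC1 overlap in PANC1, where they run from 12.2 to 27.4 CPM.

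In the inner ring, no member passed over lines without M2rtTA, where 18.1% of all genes did. With it 3 of 5 passed, all lower, where 32.9% of all genes were called and 17.3% were called lower. These were NUP35 (−0.40, adjusted p = 0.0379), NUP188 (−0.33, adjusted p = 0.0323) and NUP155 (−0.29, adjusted p = 0.0203). Their calls over lines were lost without any 1 of 10, 6 and 4 of the 18 libraries. NUP35 and NUP155 link the ring to the membrane, and NUP188 and NUP205 are its large scaffold proteins. In KP4 with M2rtTA NUP35 was at 10.1, 15.3 and 12.2 CPM in controls and 7.87, 6.07 and 5.12 CPM in OVOL2 libraries (−0.96, adjusted p = 0.0165). These groups were apart. NUP155 also passed in KP4 (−0.48, adjusted p = 0.0325). The NUP35 and NUP155 calls in KP4 were lost without any 1 of 3 and 4 of the 6 libraries. NUP93, a linker of the ring, had changes without M2rtTA of −0.34 (KP4), −1.07 (PANC1) and 0.44 (PK45H), and NUP205 had −0.15, −0.11 and 0.64, none past the threshold.

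In the Y complex, the main scaffold of the outer rings, changes were small. SEH1L fell by 0.27 over lines with M2rtTA (SE 0.07, adjusted p = 0.00416). Without M2rtTA it was at the threshold (−0.20, adjusted p = 0.04997), a call lost without any 1 of 12 of the 18 libraries. SEC13, which also coats vesicles that leave the endoplasmic reticulum, rose by 0.32 without M2rtTA (SE 0.08, adjusted p = 0.00649) and was at −0.05 (adjusted p = 0.71) with it. In PK45H SEC13 went from 65.3, 64.0 and 59.7 CPM in mCherry to 91.6, 81.8 and 74.3 CPM in OVOL2 libraries, and in KP4 it overlapped, at 75.0, 60.4 and 65.6 CPM against 65.0, 73.4 and 73.4 CPM. The difference between the arms for SEC13 did not pass (−0.37, adjusted p = 0.0514). NUP37 passed over lines with M2rtTA (−0.34, adjusted p = 0.0441). NUP107, NUP133, NUP160, NUP85, NUP43 and AHCTF1, the last being the protein that seeds pores on chromatin, did not pass in either arm. NUP133 shares 53.8% of the words in its last 500 bases with other genes, so its counts are uncertain. The NUP43 change over lines with M2rtTA (0.66, adjusted p = 0.0703) rests on KP4 OVOL2 + M2rtTA replicate 3, at 168.3 CPM against 15.2 and 16.5 CPM in its mates.

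In the nuclear basket, TPR, NUP50 and NUP153 did not pass over lines in either arm. NUP50 shares 21.9% of the words in its last 500 bases with other genes. NUP153, which docks transport receptors, passed as higher in PANC1 with M2rtTA by 0.83 (adjusted p = 0.0448). Its controls were at 6.45, 8.72 and 9.14 CPM and the OVOL2 libraries at 19.98, 9.04 and 13.9 CPM, so the groups overlapped. Without PANC1 OVOL2 + M2rtTA replicate 1 the change was 0.52 (adjusted p = 0.193), and the call was lost without any 1 of 5 of the 6 libraries. The NUP153 change with M2rtTA was −0.36 (KP4) and −0.27 (PK45H), and it differed between lines (adjusted p = 0.019, with 7.56% of all genes called).

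The effect of OVOL2 with M2rtTA minus that without it was tested over lines for the 31. Of the 31, 0 passed (edgeR, with 7.72% of all genes called), 4 had an unadjusted p under 0.05, and DESeq2 called 0 as well. The largest differences downward were those of NDC1 (−0.42) and SEC13 (−0.37), against −1.42 for AAAS, which is a description. Neither mCherry against untreated nor mCherry + M2rtTA against mCherry gave a call among the 31 in any line. At an unadjusted p under 0.05 there were 1, 0 and 1 in KP4, PANC1 and PK45H for the former and 0, 1 and 4 for the latter, DESeq2 called 0 in each, and the lowest adjusted p was 0.379 by edgeR. Over all genes, the shares called for mCherry against untreated were 0% (KP4), 0.598% (PANC1) and 0.00736% (PK45H), and for mCherry + M2rtTA against mCherry 0%, 0% and 0.0294%.

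Some nucleoporins also differed in level between the untreated lines, in a comparison in which 34.8% of all genes were called. The SE and p-values of this comparison come from the spread between libraries within a line. The spread from line to line is not in them, so they describe these 5 lines only. Of all 32, 10 passed between HPAFII with PATU8988S, which were not transduced, and KP4, PANC1 and PK45H (2 higher, 8 lower, against 34.8% of all genes, 17.4% higher and 17.4% lower), and AAAS did not (−0.07, adjusted p = 0.824). NUP210 was higher in HPAFII and PATU8988S by 1.82 (SE 0.22, adjusted p = 1.69e-05). It stood at 19.1, 8.59 and 17.2 CPM in HPAFII and 21.8, 16.9 and 28.1 CPM in PATU8988S, at 9.14, 11.7 and 15.4 CPM in KP4, 5.66, 4.79 and 9.49 CPM in PANC1 and 2.47, 2.02 and 1.16 CPM in PK45H. The HPAFII range overlapped with those of KP4 and PANC1, and PK45H was the lowest. NUP188 was lower by a change of −0.91 (adjusted p = 0.000386), and NUP37 was higher by 0.63 (adjusted p = 0.00544). NUP85 (−0.58), NUP93 (−0.50), NUP214 (−0.48), NUP155 (−0.44), NUP88 (−0.41), NUP98 (−0.39) and NUP62 (−0.34) were lower. Without HPAFII replicate 2 the count was 11, and without PATU8988S replicate 1 it was 8. NUP62 and NUP93 each lost their call without any 1 of 7 libraries.

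Genes that work with the pore are given next, by lists of transport and envelope genes over lines. As background, edgeR called 9.32% of all genes higher and 8.81% lower (18.1% together) in the arm that lacked M2rtTA; in the other arm it called 15.7% higher and 17.3% lower (32.9% together). No list was tested as a whole. Of 17 importins tested over lines, 1 rose and 4 fell without M2rtTA, and 2 rose and 6 fell with it. IPO4, an import receptor for histones and ribosomal proteins, fell by 0.58 (adjusted p = 0.000244) and by 1.19 (adjusted p = 3.12e-10), KPNA5, an importin alpha, by 0.60 (adjusted p = 0.0348) without M2rtTA, and IPO5 by 0.71 (adjusted p = 3.25e-09) with it. Of 15 exportins and mRNA export factors, 1 rose and 3 fell without M2rtTA, and 1 rose and 8 fell with it. ENY2, a subunit shared by the TREX-2 export and SAGA complexes, fell by 0.97 (adjusted p = 1.02e-08) and by 1.03 (adjusted p = 8.12e-10). DDX19B, the helicase that releases mRNA at the filaments, rose by 0.47 (adjusted p = 0.000329) without M2rtTA, and NXT2 fell by 0.72 (adjusted p = 0.0241) with it.

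The same shares of all genes, 18.1% and 32.9%, apply to the next lists. Of 6 genes of the Ran cycle, which gives transport its direction, 1 fell without M2rtTA and 4 fell with it. RANBP1 fell by 0.37 (adjusted p = 0.000808) and by 0.79 (adjusted p = 1.04e-09), and RAN itself by 0.71 (adjusted p = 1.2e-08) with M2rtTA. Of 16 nuclear envelope and lamina genes, 5 fell without M2rtTA, and 1 rose and 4 fell with it. SYNE1, a nesprin, fell by 1.94 (SE 0.63, adjusted p = 0.0288) and LMNB1 by 0.51 (adjusted p = 0.0438) without M2rtTA; BANF1, which ties chromatin to the lamina, fell by 1.30 (adjusted p = 4.04e-13) and LMNB2 by 0.75 (adjusted p = 1.27e-05) with it. Of 11 genes of the oxidative stress response, studied in ALADIN-deficient cells, 7 rose without M2rtTA, and 4 rose and 1 fell with it. SLC7A11, the cystine carrier, rose by 2.24 (edgeR, adjusted p = 0.000367) without M2rtTA and was at 0.03 (adjusted p = 0.966) with it. HMOX1 rose by 0.93 (adjusted p = 1.04e-05) without M2rtTA and by 0.84 (edgeR, adjusted p = 1.5e-05) with it. FTH1, the ferritin heavy chain, rose by 0.95 (adjusted p = 6.46e-15) and NQO1 by 0.90 (edgeR, adjusted p = 8.71e-10) with M2rtTA.

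Proliferation genes moved in the same direction as AAAS and the other nucleoporins that fell. Of 17 tested, 13 fell without M2rtTA, where 8.81% of all genes were called lower, and 16 with it, where 17.3% were. Among them were TOP2A (−0.88, adjusted p = 4.72e-06) and AURKA (−0.62, adjusted p = 1.55e-05) without it, and BUB1 (−1.24, adjusted p = 7.55e-11) and AURKA (−1.16, adjusted p = 2.5e-11) with it. With M2rtTA the summed level of the list's 18 genes was 1384 to 1493 CPM in KP4 OVOL2 libraries and 2351 to 2664 CPM in the controls, 1255 to 1314 against 1638 to 1942 CPM in PANC1, and 1093 to 1209 against 1899 to 1955 CPM in PK45H. Without M2rtTA it was 1848 to 1886 against 2260 to 2589 CPM in KP4, 1297 to 1386 against 1665 to 1909 CPM in PANC1, and 1486 to 1875 against 1974 to 2101 CPM in PK45H. The part of proliferation in the nucleoporin changes was not tested.

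The 6 genes whose pattern was most like that of AAAS held no other nucleoporin. With 31 such genes among the 10205 compared, this says little about the family. Pearson's r was computed over the 15 group means of the transduced lines, each centred on its line (log2 CPM). It covered 10205 genes with at least 5 CPM on average. The points share libraries and depth. They also include the M2rtTA groups whose AAAS values chose the gene, so r is a description. The 6 highest were RAVER1 (0.989), POPDC3 (0.988), NDUFA1 (0.982), SMARCD1 (0.978), RRAS (0.977) and MTHFD1 (0.973), and 293 genes were above 0.9. RAVER1, a splicing co-factor, changed by −0.93 and −1.56 without and with M2rtTA, and MTHFD1, a folate enzyme, by −0.56 and −1.32. The 3 most opposed were ATP6V1B2 (−0.976), NDRG4 (−0.971) and CYBA (−0.970). Among the 31 other nucleoporins r ran from −0.44 (NUP43) to 0.904 (NUP62), with a median of 0.28 against 0.06 for all genes. NUP62 ranked 274th, NUP88 (0.887) 369th and NDC1 (0.860) 540th.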

How the data were processed

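The authors deposited counts for each gene symbol, not normalized. Per the submitters' processing notes, kallisto 0.44.0 and the genome build GRCh38 were named, with no role given, and the handling of molecular identifiers is not given in the sources used here. 0 columns of values were unmatched to a sample. Groups came from the titles, and no pair of libraries was identical. R 4.3.3 with edgeR 4.0.16 was used: filterByExpr by group (minimum count of 10), TMM scaling and the quasi-likelihood test, in 1 fit per line (15 libraries), 1 over the 3 lines (45 libraries) and 1 of untreated libraries (15), adjusted over all genes tested. Standard errors came from the test statistic. DESeq2 1.42.0 was an alternative. The others were RLE scaling, no filter, another filter (a mean count of 10 or more), the replicate block, robust dispersion, a fit of all 51 libraries, only the groups compared, a prior count of 0.5 for likeness, and leaving out each library. The fits were tested on simulated data. Exact permutations used log2(CPM + 1), or the log2 ratio of CPM for AAAS to NDC1.

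The members, lists and tests were chosen with earlier results of these data known. Named were all members, the 3 RefSeq neighbours on each side of AAAS, OVOL2, the 2 called genes with the largest change over lines in each arm of each related list, and the 6 most and 3 least AAAS-like genes (log2 CPM with a prior count of 2). Promoters and positions came from RefSeq (GRCh38.p14); 29 of 32 members had a promoter window. Shared words were counted in GENCODE transcripts, where 31 of 32 members were matched. Counting intervals and depth cover counting error only.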

Additional observations from a re-analysis of the deposited data

Results flagged for a closer look

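The OVOL2 effect on AAAS without M2rtTA differed between KP4, PANC1 and PK45H by edgeR's test of the difference itself (2 degrees of freedom, adjusted p = 0.0323). The changes of AAAS were −2.04, −0.76 and −1.51, and all 9 OVOL2 libraries lay below the mCherry libraries of their line. Across the 8 alternatives with a test the adjusted p reached 0.162, in the fit of the compared groups alone, and it ran from 0.017 to 0.16 when 1 library was left out, the highest without PANC1 OVOL2 replicate 2. The OVOL2 effect on NUP153 with M2rtTA also differed between the lines (adjusted p = 0.019), with changes of −0.36 (KP4), 0.83 (PANC1) and −0.27 (PK45H). That difference was lost without PANC1 OVOL2 + M2rtTA replicate 1 (adjusted p = 0.132) or without PANC1 mCherry + M2rtTA replicate 1, and in the fit of the compared groups alone (adjusted p = 0.127).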

How the results depend on the processing

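The AAAS change without M2rtTA kept its direction and its call under every alternative over lines, in KP4 and in PK45H; leaving out 1 library gave −1.53 to −1.34 over lines, −2.18 to −1.96 in KP4 and −1.77 to −1.28 in PK45H. In PANC1 it ran from −1.08 to −0.61 and also lost its call with no filter (−0.77, adjusted p = 0.0672), in the fit of all 51 libraries (−0.78, adjusted p = 0.0902) and with only the compared groups (−0.75, adjusted p = 0.149). With M2rtTA it lay between −2.89 and −2.80 over lines without 1 library.

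Counts of the 31 other nucleoporins without M2rtTA were 2 to 4 over lines without 1 library. In KP4 the fit of all 51 libraries called 1; in PANC1 robust dispersion called 1, the fit of all 51 libraries 2, DESeq2 2, and leaving out 1 library 0 to 1. With M2rtTA, leaving out 1 library gave 5 to 9 over lines, 3 to 7 in KP4, 0 to 1 in PANC1 and 0 in PK45H. Over lines, the calls lost with no filter were NUP35, NUP37 and NUP42, those lost with only the compared groups NUP35, NUP37 and NUP155, and those lost with DESeq2 NUP35 and NUP37; NUP37 was also lost with RLE scaling and the replicate block, and NUP35 in the fit of all 51 libraries. SEH1L without M2rtTA was lost in 5 of 8 alternatives. The fit of only the compared groups gave 3 in KP4, 1 in PANC1 and 0 in PK45H, no filter 0 in PANC1 and 0 in PK45H, and robust dispersion 2 in PK45H. For the difference between arms, leaving out 1 library gave 0 to 1. For the difference between lines without M2rtTA, no filter, the fit of all 51 libraries and only the compared groups gave 0 and DESeq2 gave 2, while leaving out 1 library gave 0 to 1. The untreated comparison gave 8 to 11 without 1 library.

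Replicate numbers did not pair the libraries: of the 6 comparisons within lines and arms, none had 3 correlations over 0.1. With the replicate block the count with M2rtTA was 1 in PANC1 and 0 in PK45H, and that of the difference between arms was 1. The cause of these moves was not tested. At 23 to 655 counts per library for AAAS, counting error is small beside its change; NUP35, NUP153 and NUP210, at medians of 40, 45 and 31 counts, are less certain.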
